A study of Caenorhabditis elegans with 9 samples.

Results

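The nuclear hormone receptor genes of Caenorhabditis elegans that carry an nhr name were followed across 9 RNA-seq libraries of larvae in L4 lethargus, the sleep-like state before the last moult. The set was taken by gene name. It held 279 of the 283 genes named nhr in a table of 46699 genes, and the receptor genes nhr-23, nhr-25, nhr-73 and nhr-85 were not part of it. Wild type was strain N2, and the other animals carried nas-38(tm2655), strain HBR1114, or nas-38(ok3407), strain HBR1010. The gene nas-38 codes for a protease of the astacin type that cells secrete. Each genotype had 3 biological replicates, and each allele came from 1 strain. All animals ate E. coli OP50, were kept at 20 °C and were picked by hand while asleep as whole larvae, so each library mixes all tissues. Headers of the deposited tables mark tm2655 as lof (loss of function) and ok3407 as gof (gain of function). The series title gives the latter allele as ok4307.

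Nuclear hormone receptors are transcription factors with a zinc finger DNA-binding domain and, usually, a ligand-binding domain that reads a small lipophilic molecule such as a sterol or a fatty acid. Nematodes have expanded this family far beyond insects and vertebrates, mostly by duplication of a gene related to vertebrate HNF4. A minority of the worm receptors have clear counterparts across animals. Well studied members switch fat metabolism, vitamin B12 and propionate metabolism, detoxification, and the shaping of organs, and many others have no known role.

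The libraries held 13.8 to 40.5 megareads in genes. The targeted gene nas-38 stood at 134, 57.9 and 65.1 counts per megaread (CPM) in wild type replicates 1 to 3, at 7.56 to 14.4 CPM in tm2655 and at 227 to 375 CPM in ok3407. CPM here are total gene reads scaled by library size and edgeR's TMM factor, and they compare libraries for 1 gene. RPKM, the authors' exon reads per kilobase and megaread, compare levels between genes. Reads carry no molecular identifiers, so read floors cover counting error alone.

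Reads were found for 267 of the 279 receptors, and the other 12 had 0 reads in all 9 libraries. A read was present in every library for 198 members. Enough reads for a test were present for 203 members (72.76%, against 34.38% of all genes), and the 76 members left untested had at most 61 reads summed over the 9 libraries. RefSeq lists 263 of the members as protein coding and 14 as pseudogenes, of which 7 were tested, and has no entry for nhr-33 or nhr-284. All reads of nhr-83, nhr-93, nhr-144, nhr-151 and nhr-220 lay in introns, and 4 of these 5 are pseudogenes in RefSeq.

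Most receptors were present at low level. The median member had a mean of 1.57 RPKM in wild type, with quartiles of 0.104 and 5.17. At least 1 RPKM was reached by 150 members and at least 10 RPKM by 26. The 10 highest receptors held 32.5% of the family's summed RPKM in wild type, 28.9% in tm2655 and 28.6% in ok3407. All members together took 0.196%, 0.236% and 0.199% of gene reads in wild type replicates 1 to 3. The share was 0.218% to 0.221% in tm2655 and 0.235% to 0.260% in ok3407, so wild type replicate 2 lay inside the range of ok3407.

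The highest receptor in wild type was nhr-114, an HNF4-related gene that worms need to stay fertile on an OP50 diet low in vitamin B12. Its level was 88.1, 111.2 and 108.3 RPKM, above every wild type value of nhr-49, which stood at 41.1, 54.3 and 41.3 RPKM. NHR-49 is the regulator of fat oxidation and desaturation often likened to PPAR alpha of mammals. Next came nhr-97 (40.4 ± 7.30 RPKM, SD, n = 3) and nhr-68 (39.8 ± 11.1), a regulator of propionate breakdown. These 3 receptors below nhr-114 did not differ beyond their spread.

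The remaining 6 of the 10 highest lay between 21.1 and 29.2 RPKM in wild type. They were nhr-3, nhr-27, nhr-31, nhr-86, nhr-45 and nhr-66. NHR-31 shapes the excretory canal, NHR-86 governs intestinal defence genes, NHR-45 takes part in detoxification and NHR-66 acts with NHR-49 on lipid genes. Neighbours in this order overlapped in their spread. The level of nhr-27 comes with a limit, because the gene spans 108016 bases, overlaps 21 other annotated genes, had 58.0% of its reads in introns and 54.2% mapped uniquely.

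In ok3407 the order at the top was different. nhr-97 came first at 65.7 ± 9.40 RPKM, followed by nhr-49 at 61.1 ± 4.50, nhr-68 at 52.4 ± 0.349, nhr-114 at 45.7 ± 6.87 and nhr-3 at 44.4 ± 8.34. nhr-97 and nhr-49 overlapped in their spread, as did nhr-68, nhr-114 and nhr-3. In tm2655, nhr-114 was again the highest.

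Chromosome V carried 175 of the 279 members (62.7%), chromosome IV 34, chromosome X 24, chromosome I 22, chromosome II 16 and chromosome III 8. Level did not follow number. The median wild type level was 1.39 RPKM on V, 5.42 on X and 4.79 on IV, and 0.106 on I, where 9 of 22 members could be tested. Members also sit side by side: 171 of them (61.3%) fell into 47 runs whose neighbours are at most 10000 bases apart, and 132 of those are on V. The longest run holds 12 members on V, from base 451453 to base 497211. Coordinates are those of the deposited tables, and of the 263 members that share a name with the WBcel235 annotation used here, both ends of 260 lie within 5000 bases of that annotation.

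**Figure D1:**
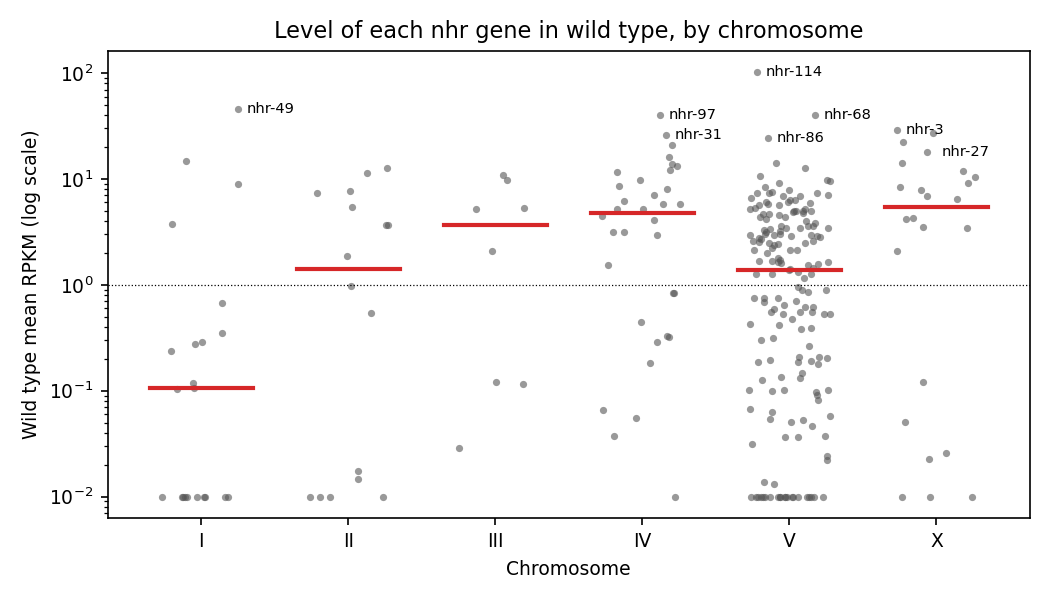
Mean RPKM of each nhr gene in the 3 wild type libraries (log axis, 1 point per gene, values under 0.01 drawn at 0.01), by chromosome; red bars are medians and the dotted line marks 1 RPKM. Chromosome V holds 175 genes with a median of 1.39 RPKM, while the medians of IV and X are 4.79 and 5.42.

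Replicates of the better expressed receptors were about as close as those of other genes. Among members with a mean of at least 5 RPKM, the median coefficient of variation of CPM was 11.7% in wild type (73 members). All genes at that level had 13.97%. The members' median was 13.7% in tm2655 (against 14.26% for all genes) and 14.7% in ok3407 (against 13.58%). The steadiest in wild type was nhr-61, at 8.30, 8.27 and 8.28 CPM. The least steady was nhr-115, at 6.72, 19.05 and 7.53 CPM, where replicate 2 alone was high. In ok3407 the widest spread was that of nhr-38, at 0.0355, 16.1 and 2.35 CPM, with 549 reads in replicate 2 against 1 read in replicate 1. The other 6 libraries held 0 to 11 reads of nhr-38 each.

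The comparison of ok3407 with wild type asks which receptors change in animals with the allele called a gain of function. 4 receptors rose, nhr-246, nhr-63, nhr-11 and nhr-50, and 2 fell, nhr-114 and nhr-22, while 197 of the 203 tested did not pass (edgeR quasi-likelihood test, adjusted p under 0.05 over 16055 genes). That is 2.96% of the tested members, against 6.23% of all genes tested (3.33% rose and 2.91% fell). The count includes nhr-246, which passed the filter on low counts only through ok3407, so nothing is read from the difference of these shares. An unadjusted p under 0.05 was given to 40 members and to 3796 of all genes. The libraries of the groups did not overlap for 39 members above wild type and 19 below, against 14.4% and 14.5% of all genes (28.8% in all).

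The middle of the family stood slightly higher in ok3407 than in wild type. The median log2 fold change of the tested members was 0.17, with quartiles of -0.21 and 0.51, against 0.03 for all genes. Setting nhr-246 to its lower bound (log2 3.29) cannot move this median, since the bound lies above it too. The median was 0.10 for the 157 tested members with a mean of at least 1 RPKM over the 9 libraries. It was 0.48 for the 46 tested members under 1 RPKM. Rare members can pass the filter on low counts through a single group, as nhr-246 did. How many others did so was not counted, so nothing is read from this higher median. With scaling by total library size the medians of all tested members and of all genes were 0.39 and 0.24. The changes given here are relative to TMM scaling. Under that other scaling 8 members rose and 1 fell, and the 16055 genes split into 757 that rose and 167 that fell.

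**Figure D2:**
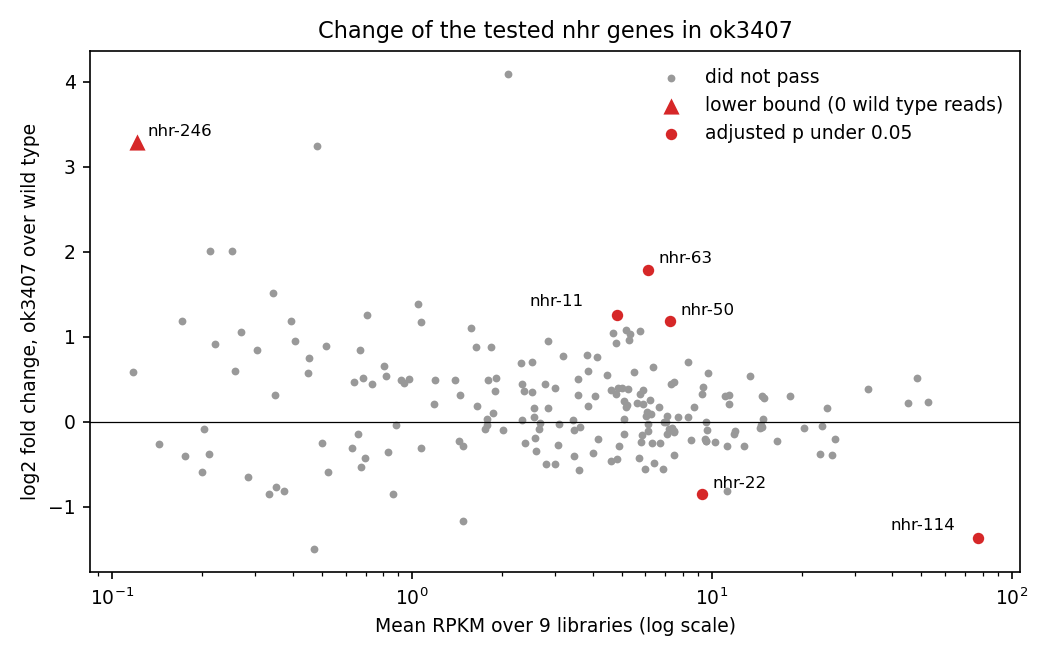
Log2 fold change of ok3407 over wild type for the 203 tested nhr genes (y) against mean RPKM over the 9 libraries (x, log axis); red points passed the edgeR test and the triangle is a lower bound for nhr-246, which had 0 wild type reads. The highest receptor of the family, nhr-114, lies lowest among the red points, and the 4 receptors that rose have low or middle levels.

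Among the lipid and nutrient receptors, nhr-114 (V, 4187209 to 4189864, plus strand) fell. Its CPM were 136.2, 156.1 and 174.1 in wild type, 83.8, 147.5 and 134.8 in tm2655, and 72.5, 49.5 and 58.2 in ok3407. Every ok3407 library was below every library of the other 2 groups, and tm2655 replicate 1 was the lowest of those. The level in ok3407 was 2.59-fold lower than in wild type (log2 -1.37 ± 0.22, SE, edgeR adjusted p = 0.0115). In whole animals, fewer cells of a type and less RNA per cell cannot be told apart.

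The gene overlaps Y45G5AM.9 on the other strand, and whether the counting used strand is not given in the sources used here. Y45G5AM.9 had a log2 change of -0.50 ± 0.11 (edgeR adjusted p = 0.0307), but -0.32 with uniquely mapped reads (adjusted p = 0.0949) and -0.03 with exon reads (0.883). With limma on RPKM the sign of Y45G5AM.9 turned, to 0.15. Of the nhr-114 reads, 66.4% mapped uniquely and 7.21% were intronic. Uniquely mapped reads alone gave nhr-114 a log2 change of -1.19 (edgeR adjusted p = 0.0141). Without wild type replicate 3 the adjusted p of nhr-114 was 0.0613.

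The other receptor that fell was nhr-22 (II, 6446361 to 6449788, minus strand). Its CPM were 18.3, 28.2 and 20.4 in wild type, 15.6, 20.5 and 17.1 in tm2655, and 12.5, 12 and 12.7 in ok3407. The ok3407 libraries were close together and below the other 6, and tm2655 lay between and overlapped wild type. The log2 change was -0.85 ± 0.19 (edgeR adjusted p = 0.0325), and it did not pass with scaling by total library size (adjusted p = 0.107). The call also ended with limma (0.126 and 0.124 in its 2 fits) and with the 6 libraries of the comparison alone (edgeR, 0.0506).

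nhr-50 (V, 15997832 to 15999623, minus strand) rose. Its CPM were 8.06, 5.42 and 6.32 in wild type, 9.13, 6.59 and 5.92 in tm2655, and 13.6, 14.7 and 16.5 in ok3407. The ok3407 libraries were all above the other 6, which overlapped each other. The level was 2.27-fold higher than in wild type (log2 1.18 ± 0.23, edgeR adjusted p = 0.0211).

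nhr-63 (V, 16002595 to 16004680, plus strand) is the next receptor along the chromosome from nhr-50, 2971 bases away and read in the opposite direction. The pair was singled out after its values were seen. nhr-63 had 5.38, 3.85 and 2.05 CPM in wild type, 7.69, 4.45 and 2.74 in tm2655, and 9.29, 14.4 and 14.9 in ok3407. ok3407 was above both other groups in every library, though replicate 1 was only a little above tm2655 replicate 1. The log2 change over wild type was 1.79 ± 0.44 (edgeR adjusted p = 0.0441).

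nhr-11 (IV, 9070010 to 9073520, plus strand) rose from 5.06, 5.60 and 3.30 CPM in wild type to 9.90, 12.7 and 10.9 in ok3407, with 7.90, 5.40 and 4.48 in tm2655. No ok3407 library overlapped another group. Its log2 change was 1.26 ± 0.28 (edgeR adjusted p = 0.0324).

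nhr-246 (V, 15316497 to 15318425, plus strand) was a rare transcript. It had 0 reads in the 3 wild type libraries and 46 in the 3 ok3407 libraries. Its CPM were 0.355, 0.588 and 0.362 in ok3407 and 0.0350, 0.0330 and 0.0684 in tm2655. Against a floor of 3 reads over the wild type group, it was at least 9.79-fold higher in ok3407 (edgeR adjusted p = 0.0211). Since ok3407 alone brought it past the filter on low counts, its call is no support for a rise of the family, and with a filter of 1 CPM in 3 libraries it was not tested.

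These calls rest on few libraries. Leaving out wild type replicate 3 ended all 6 (adjusted p of 0.0613 to 0.158), and leaving out ok3407 replicate 2 ended all but that of nhr-114 (0.0673 to 0.126). Leaving out wild type replicate 2 ended 3 calls, as did leaving out either remaining ok3407 library, and without wild type replicate 1 those of nhr-11 and nhr-63. Without tm2655 replicate 2 or 3, nhr-63 or nhr-22 did not pass. Directions held in each of these fits.

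**Figure D3:**
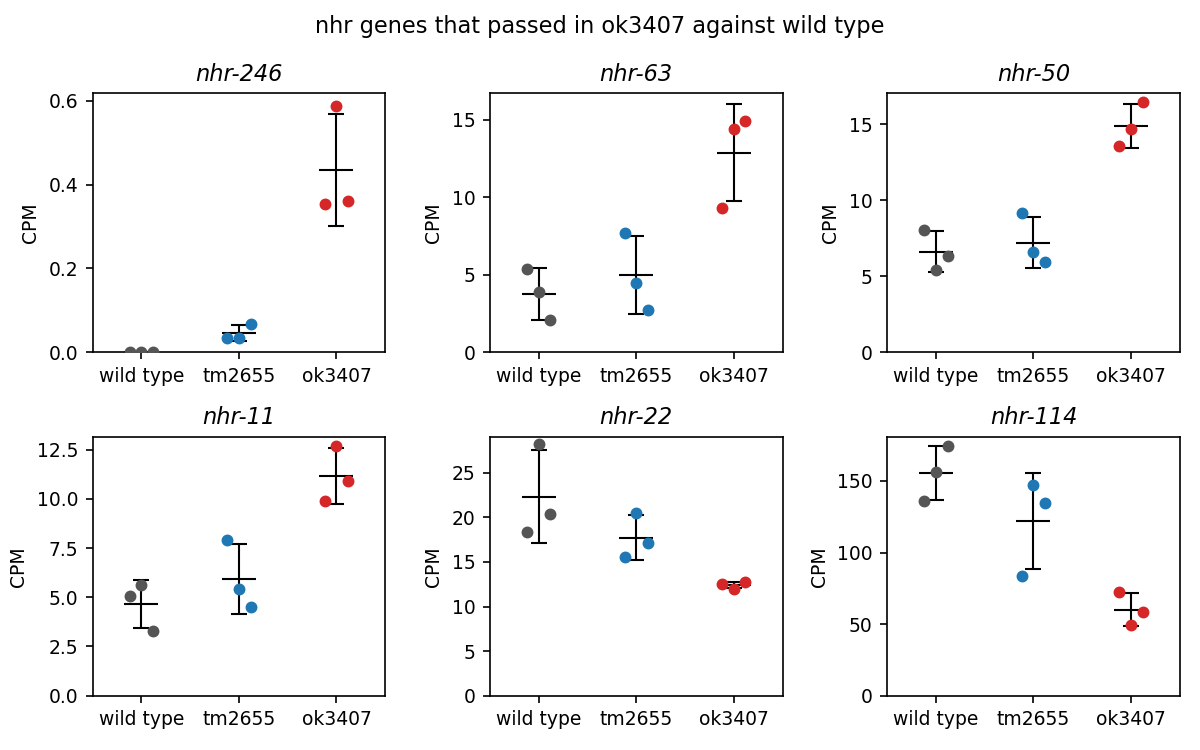
CPM of the 6 nhr genes that passed in ok3407 against wild type; points are single libraries, the cross bar is the mean and the whiskers are SD (n = 3), each panel with its own axis from 0. In all 6 panels the ok3407 points lie apart from the wild type and tm2655 points. For nhr-114 tm2655 replicate 1 (83.8 CPM) is nearer to ok3407 than to wild type. For nhr-63 that library (7.69 CPM) is the closest of the other points to ok3407.

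The authors' deposited table of the same comparison, which lists 925 genes, holds 7 members. nhr-246, nhr-63, nhr-50, nhr-11, nhr-147 and nhr-180 are listed there as higher in ok3407, and nhr-114 as lower, with signed folds of 2.15 to 89.1 and of -2.56. In the edgeR fit nhr-147 and nhr-180 did not pass (adjusted p of 0.0679 and 0.0791). DESeq2 called 17 members in this comparison, 13 higher and 4 lower, and the 6 above were among them.

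Just outside the threshold stood nhr-152, at 1.90, 3.17 and 2.46 CPM in wild type and 1.03, 1.26 and 1.09 in ok3407 (log2 -1.17 ± 0.30, edgeR adjusted p = 0.0504). The groups did not overlap. nhr-97 had 53.4, 70.3 and 71.7 CPM in wild type and 103.4, 98.8 and 77.05 in ok3407 (log2 0.51 ± 0.15, edgeR adjusted p = 0.0781). Its groups did not overlap either, and with scaling by total library size its adjusted p was 0.0380.

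Receptors with a known role were then read group by group in ok3407 against wild type. Of the 8 conserved receptors, 7 were tested and none passed, with a median log2 change of -0.06 against 0.03 for all genes. nhr-8, a relative of the DAF-12 and vitamin D type receptors that handles cholesterol and toxins, was the highest of them at 16.2 ± 4.37 RPKM in wild type (log2 -0.23 ± 0.21). nhr-48, its close relative, stood at -0.23 ± 0.16. The NR4A receptor nhr-6, needed for the spermatheca, had 0.45 ± 0.38, with ok3407 replicate 3 alone high at 9.75 CPM. nhr-41 stood at 0.33 ± 0.21. The tailless relative nhr-67 and the GCNF relative nhr-91 stood at -0.04 ± 0.33 and -0.06 ± 0.25.

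nhr-111 had 3 reads over the 9 libraries and was not tested. Reads of nhr-239 were 98.1% intronic and 25.6% unique, and Y54F10AM.11 overlaps it on the other strand, so its change of -0.26 ± 0.22 is uncertain.

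The 9 lipid and nutrient receptors were all tested. nhr-114 fell and the other 8 did not pass, and the median log2 change of the 9 was 0.16. nhr-49 had 76.3, 89.8 and 78.4 CPM in wild type and 104.9, 95.4 and 87.4 in ok3407 (log2 0.23 ± 0.11, edgeR adjusted p = 0.249), with ok3407 replicate 3 below wild type replicate 2. Its partners in lipid regulation nhr-80, nhr-13 and nhr-66 stood at -0.11 ± 0.14, -0.24 ± 0.18 and 0.16 ± 0.14. nhr-62, which acts in dietary restriction, stood at -0.37 ± 0.26, and nhr-69 at 0.31 ± 0.15.

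nhr-10 and nhr-68 act together to switch on propionate breakdown when vitamin B12 is short. nhr-10 had 11.5, 18.0 and 12.2 CPM in wild type and 22.5, 21.2 and 17.3 in ok3407 (log2 0.54 ± 0.22, edgeR adjusted p = 0.171). nhr-68 had 44.98, 66.5 and 50.5 CPM in wild type and 65.0, 62.3 and 61.5 in ok3407 (log2 0.22 ± 0.14, edgeR adjusted p = 0.391). For both receptors wild type replicate 2 lay within or above the range of ok3407.

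Of the 6 receptors of xenobiotic, pathogen and stress responses, none passed, and their median was -0.06. nhr-86 had 38.7, 36.4 and 36.7 CPM in wild type and 25.1, 33.0 and 28 in ok3407, which did not overlap (log2 -0.38 ± 0.13, edgeR adjusted p = 0.112). nhr-176, which drives a cytochrome P450 gene in the response to thiabendazole, had 3.72, 3.23 and 4.04 CPM in wild type and 5.99, 8.88 and 5.99 in ok3407, again without overlap (log2 0.93 ± 0.30, edgeR adjusted p = 0.103). nhr-57, a gene induced by hypoxia, had 0.38 ± 0.38, nhr-14, which governs iron uptake, -0.07 ± 0.27, and nhr-45 -0.05 ± 0.12.

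The 6 receptors of tissue development likewise gave no call, with a median of -0.02. nhr-31 had 49.1, 53.1 and 61.0 CPM in wild type and 39.6, 40.7 and 44.1 in ok3407, without overlap (log2 -0.39 ± 0.17, edgeR adjusted p = 0.210). nhr-60 was low, at 0.837 to 1.502 CPM in wild type and 0.106 to 0.647 in ok3407 (log2 -1.495 ± 0.58, edgeR adjusted p = 0.157). nhr-40, a regulator of muscle development, stood at 0.00 ± 0.15 and the embryonic receptor nhr-2 at 0.89 ± 0.70.

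**Figure D4:**
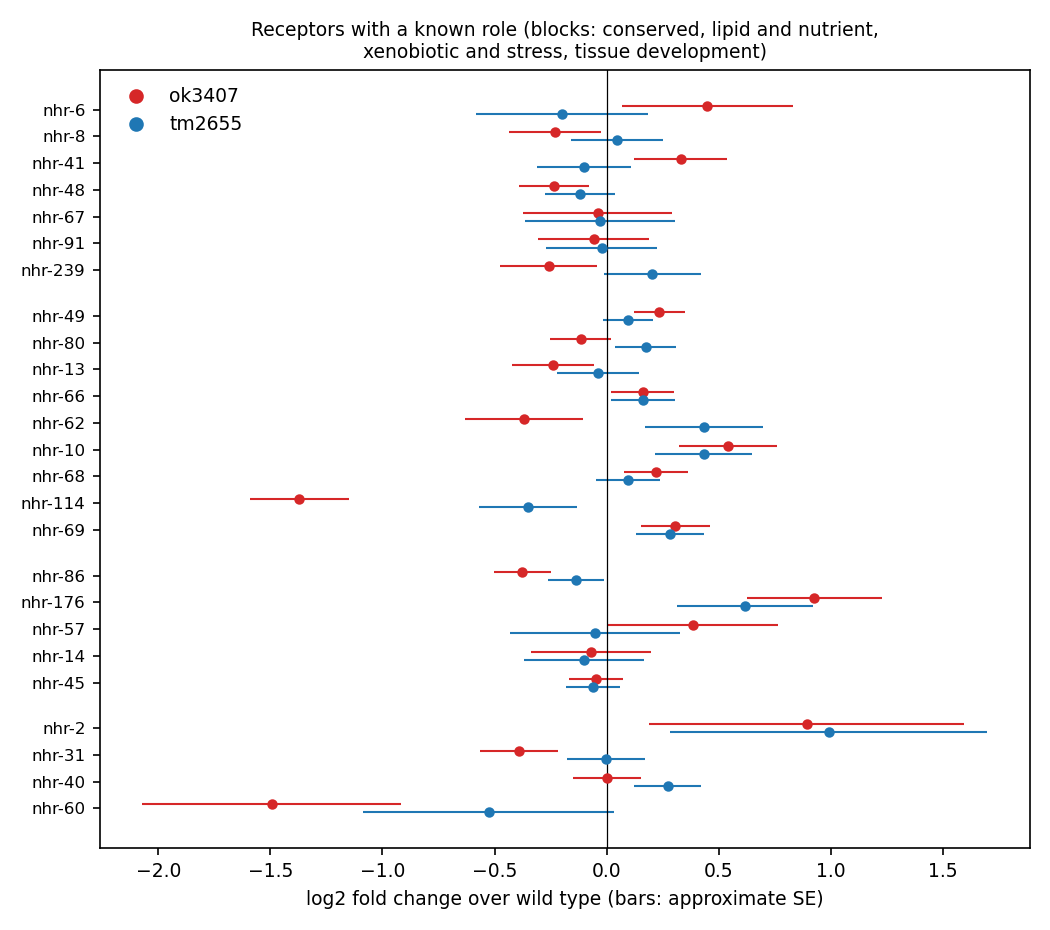
Log2 fold change over wild type of the tested receptors with a known role, for ok3407 (red) and tm2655 (blue); points are edgeR estimates and bars are approximate SE, in 4 blocks of roles with each gene shown once. nhr-114 in ok3407, at -1.37, is the single point of the plot that passed the test.

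The comparison of tm2655 with wild type asks the same of the allele called a loss of function. No receptor passed, and 1 of the 16055 genes did (0.00623%). An unadjusted p under 0.05 was given to 12 members and to 397 genes, and DESeq2 called 0 members. The median log2 change of the members was 0.12 against 0.01 for all genes. tm2655 lay wholly above wild type for 20 members and wholly below for 5, against 3.85% and 2.62% of all genes (6.47% in all).

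The smallest p belonged to nhr-141, at 0.474, 0.711 and 0.558 CPM in wild type and 1.40, 1.22 and 1.33 in tm2655. The groups were apart (log2 1.15 ± 0.33), but the edgeR adjusted p was 0.9985. ok3407 had 0.9499 to 1.17 CPM of the same gene. nhr-121, nhr-59, nhr-112 and nhr-105 followed with log2 changes of 0.46 to 1.03 in tm2655. All 5 stood above wild type in tm2655, and none of them passed.

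The 6 receptors called in ok3407 were picked by their values there, so nothing is read from their smaller estimates in tm2655. They were -0.35 for nhr-114, -0.33 for nhr-22, 0.13 for nhr-50, 0.41 for nhr-63 and 0.35 for nhr-11 on the log2 scale, each with an edgeR adjusted p of 0.9985. nhr-246 had 4 reads in the 3 tm2655 libraries against 0 in wild type. Both mutants are set against the same wild type libraries here.

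Set directly against tm2655, ok3407 had 1 receptor higher and 1 lower, against 4.02% of all genes called (2.33% rose and 1.69% fell). nhr-50 rose (log2 1.05 ± 0.23, edgeR adjusted p = 0.0340) and nhr-114 fell (log2 -1.02 ± 0.22, adjusted p = 0.0332). Both calls ended without tm2655 replicate 2, tm2655 replicate 3, ok3407 replicate 2, ok3407 replicate 3 or wild type replicate 3, with adjusted p of up to 0.139. Without wild type replicate 1 or 2 the call of nhr-114 ended, and without ok3407 replicate 1 that of nhr-50. The call of nhr-114 also ended with scaling by total library size (adjusted p = 0.0525), with limma, with a replicate block (0.0646) and with the 6 libraries of the comparison alone (0.0875). The call of nhr-50 ended with exon reads alone (0.0610) and with those 6 libraries (0.0608).

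In the same comparison nhr-97 had a log2 change of 0.60 ± 0.15 (edgeR adjusted p = 0.0593), nhr-152 had -1.05 ± 0.30 (0.0857), and nhr-246 had an adjusted p of 0.0563. An unadjusted p under 0.05 was given to 28 members, and the median log2 change of the members was -0.03 against 0.01. ok3407 lay wholly above tm2655 for 25 members and wholly below for 21, against 23.4% of all genes in both directions together. The remaining role groups gave no call.

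Genes around the receptors were read from lists of the pathway. The 5 listed receptors without an nhr name, among them the dafachronic acid receptor daf-12, gave no call in the 4 that were tested. daf-12 had 22.6, 22.2 and 28.4 CPM in wild type and 18.7, 20.3 and 23.8 in ok3407, which overlapped (log2 -0.22 ± 0.16, edgeR adjusted p = 0.446). The coregulators mdt-15, din-1 and cbp-1, which bind NHR-49, DAF-12 and many other factors, did not pass.

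Of 6 genes of dafachronic acid synthesis, which makes the ligand of DAF-12, 5 were tested and daf-36 fell. DAF-36 is the oxygenase that begins the pathway from cholesterol. It had 18.0, 16.9 and 18.9 CPM in wild type, 22.8, 24.8 and 17.4 in tm2655 and 10.4, 10.8 and 9.77 in ok3407. ok3407 was below every other library (log2 -0.80 ± 0.16, edgeR adjusted p = 0.0256, and -1.07 against tm2655, adjusted p = 0.00843). The call against wild type ended without wild type replicate 1 or 3 or any 1 of the ok3407 libraries (0.0646 to 0.111). It also ended with scaling by total library size (log2 -0.58, adjusted p = 0.0901) and with limma. The cytochrome P450 daf-9, which completes the ligand, had a log2 change of 0.09 ± 0.27.

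The targets of NHR-49 in fat metabolism gave no call in any of the 9 listed genes. The desaturases fat-5, fat-6 and fat-7 spread widely between replicates, with fat-7 at 16.4 to 234.1 CPM in wild type and 20.4 to 148.3 in ok3407. The glyoxylate cycle gene icl-1 had 434.1, 449.8 and 665.4 CPM in wild type and 1165, 1296 and 928.7 in ok3407, without overlap (log2 1.13 ± 0.42, edgeR adjusted p = 0.151).

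The propionate shunt, the pathway under NHR-10 and NHR-68 that burns propionate when vitamin B12 is short, was lower in ok3407. 4 of its 5 genes fell against wild type, with a median log2 change of -0.94, and the same count fell against tm2655. Of all genes 2.91% fell against wild type and 1.69% against tm2655. This list, like those of the vacuolar ATPase and the tissue markers, was chosen with earlier results of these data known. Nothing is therefore read from the difference of such shares. acdh-1, the dehydrogenase of the first step, had 2003, 2836 and 2492 CPM in wild type, 2232, 2974 and 2985 in tm2655 and 962.1, 1337 and 1526 in ok3407 (log2 -0.94 ± 0.21, edgeR adjusted p = 0.0327).

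The hydratase ech-6 had 899.7, 811.4 and 905.5 CPM in wild type and 372.6, 301.1 and 423.9 in ok3407 (log2 -1.25 ± 0.15, edgeR adjusted p = 0.00383). hphd-1, listed as Y38F1A.6, and alh-8, which carry the last steps, changed by -1.01 ± 0.23 and -0.58 ± 0.13 (edgeR adjusted p = 0.0360 and 0.0352). For all 4 genes every ok3407 library lay below every wild type library, as was the case for 14.5% of all genes. hach-1, listed as F09F7.4, had 349.7, 421.1 and 522.1 CPM in wild type and 395.8, 244.5 and 187.3 in ok3407, which overlapped, and did not pass (log2 -0.64 ± 0.27, edgeR adjusted p = 0.185).

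The ech-6 call held without any 1 of the 9 libraries. Without wild type replicate 3 or ok3407 replicate 2 the other 3 calls ended (0.0871 to 0.150). 2 of these 3 ended without wild type replicate 1 or 2, tm2655 replicate 2, or ok3407 replicate 1 or 3, and alh-8 without tm2655 replicate 3. Against tm2655, the same 3 calls ended without tm2655 replicate 2 or 3 or ok3407 replicate 2, and 1 or 2 of them without each other library but wild type replicate 3. With scaling by total library size or with limma, acdh-1, hphd-1 and alh-8 did not pass against wild type. Nor did acdh-1 and alh-8 with the 6 libraries of that comparison alone. Against tm2655, hphd-1 did not pass with limma, with a replicate block or with the 6 libraries of that comparison.

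**Figure D5:**
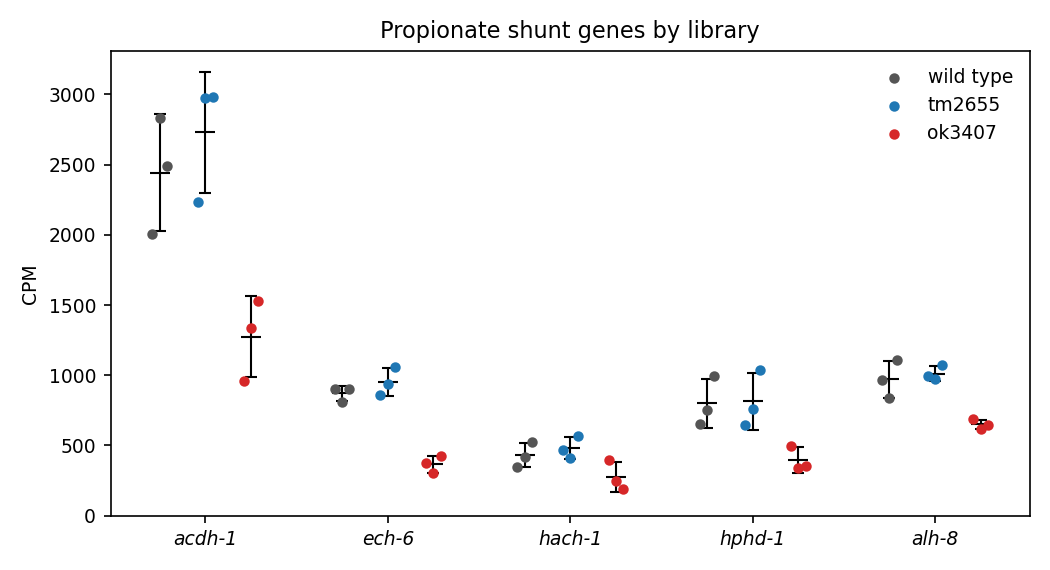
CPM of the 5 propionate shunt genes in each library, in order of the pathway; points are single libraries, the cross bar is the mean and the whiskers are SD (n = 3). Wild type and tm2655 overlap for each gene, and the ok3407 points lie below both for 4 genes and overlap wild type for hach-1.

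The vacuolar ATPase is the proton pump whose genes NHR-31 regulates in the excretory canal. 4 of its 19 genes fell in ok3407 against wild type, vha-8, vha-10, vha-11 and vha-17, with log2 changes of -0.58 to -0.79, and the median of the list was -0.42. Of all genes 2.91% fell. All ok3407 libraries lay below wild type for 15 of the 19, against 14.5% of all genes. The 4 calls ended without wild type replicate 1 or 3 or ok3407 replicate 1 or 2 (0.0607 to 0.161), and those of vha-8 and vha-11 also without tm2655 replicate 2 or 3 or ok3407 replicate 3. With scaling by total library size or with limma vha-8, vha-11 and vha-17 did not pass, nor did vha-8 and vha-11 with a replicate block. vha-17 did not pass with exon reads alone, nor did vha-8 and vha-17 with the 6 libraries of the comparison alone. None of the 19 passed against tm2655, though the median of the list there was -0.41. All ok3407 libraries lay below tm2655 for 15 of the 19, against 12.3% of all genes.

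Some tissue markers were also lower in ok3407, where 2.91% of all genes fell against wild type. Of the 11 tested intestine markers 2 fell, act-5 and asp-3, and the median was -0.50. Estimates were above 0 for 2 of the 11. All ok3407 libraries lay below wild type for 5 and above it for 2, against 14.5% and 14.4% of all genes. The summed level of the intestine markers was 7131 to 10930 CPM in wild type, 7897 to 10580 in tm2655 and 4545 to 5403 in ok3407. The intestinal master regulator elt-2 had 32.6 to 36.8 CPM in wild type and 20.6 to 33.7 in ok3407, and end-1, an embryonic marker, was at 0 to 0.611 CPM throughout. Of 10 muscle markers 6 fell, with sums of 14230 to 17730 CPM in wild type, 13030 to 16180 in tm2655 and 9736 to 11390 in ok3407. The asp-3 call ended without any 1 library but wild type replicate 2 and tm2655 replicate 1. All 6 muscle calls ended without wild type replicate 1 or 3 or ok3407 replicate 2 (0.0710 to 0.158), 5 without ok3407 replicate 1, 4 without tm2655 replicate 2 or 3 or ok3407 replicate 3, and 1 without wild type replicate 2. With scaling by total library size 4 of the 6 did not pass. Against tm2655, none of the 10 muscle markers passed, and act-5 alone did among the intestine markers. The medians against tm2655 were -0.48 for the muscle list and -0.64 for the intestine list. All ok3407 libraries lay below tm2655 for 7 muscle and 6 intestine markers, against 12.3% of all genes. They lay above it for 0 and 1, against 11.2%.

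Of 9 epidermis markers elt-3 alone fell against wild type. Its call ended with scaling by total library size (edgeR adjusted p = 0.0796) and with limma. It also ended without any 1 library but tm2655 replicate 1 or 3 or ok3407 replicate 3. Against tm2655 elt-3 fell too, but not with that scaling, limma, exon reads alone or the 6 libraries of the comparison. That call held only without tm2655 replicate 1 or ok3407 replicate 3 among the fits that left out a library. Against wild type the median of the epidermis list was 0.03, with 5 of 9 estimates above 0. Its sums were 981.6 to 1271 CPM in wild type, 899.6 to 1249 in tm2655 and 676.8 to 965.3 in ok3407. Neuron, pharynx and germline markers gave no call among 12, 8 and 12 genes. The germline sums were 2601 to 2921 CPM in wild type and 2280 to 2486 in ok3407. The part of these tissue levels in the lower values of nhr-114, daf-36, the propionate shunt and the vacuolar ATPase was not tested.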

How the data were processed

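For each library the authors deposited unnormalised counts of total, exon, intron and unique reads per gene, per the file headers. RPKM values and the exon length of each gene in bases stand beside them in the deposited tables. The authors' comparison tables hold EDGE test p-values, raw and corrected, and a score, the signed fold, per the file headers. Libraries were stranded mRNA preparations read in 75 cycles from both ends, per the labels' protocols. No label or header names the aligner, the counter, its strand setting or the build.

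Total gene reads of all 9 libraries entered 1 edgeR 4.0.16 quasi-likelihood fit (R 4.3.3, TMM, filterByExpr, Benjamini-Hochberg over 16055 genes) with 3 contrasts that share libraries. SE is the size of the log2 change divided by the root of F. Alternatives were limma 3.58.1, DESeq2 1.42.0, other scalings, filters and read classes, and leaving out each library. With 3 libraries a group, p-values measure the spread between these replicates.

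Members came from the name rule. Members, gene lists and markers were chosen with earlier results of these data known. Named were the members with a listed role, the members called, the 5 smallest p of each comparison, the 10 highest wild type levels and the called genes of the lists; nhr-147, nhr-180, nhr-38, nhr-61, nhr-115 and the genes with limits were named after their values were seen. hach-1, hphd-1 and strm-1 were matched through RefSeq locus tags, and the marker opt-2 was not matched. No sequence was used.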

Additional observations from a re-analysis of the deposited data

How the results depend on the processing

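In ok3407 against wild type, DESeq2 called 2033 genes and 17 receptors, against 1001 and 6; leaving out 1 library gave 123 to 1163 genes and 0 to 8 receptors. In ok3407 against tm2655, DESeq2 called 1471 genes and 12 receptors, against 645 and 2. The 6 libraries of that comparison alone gave 390 genes and 1 receptor, exon reads alone 1 receptor, and leaving out 1 library 222 to 623 genes and 0 to 3 receptors. In tm2655 against wild type, DESeq2 called 4 genes, exon reads alone 0 and leaving out 1 library 0 to 1; receptors were 0 in every setting. At 10 reads in place of 1, 163 and not 198 receptors were detected in every library.

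Replicate numbers did not pair the libraries: same-numbered libraries had correlations of -0.245 to 0.399 after removal of group means. A replicate block gave 883 genes and 8 receptors for ok3407 against wild type, 674 and 1 for ok3407 against tm2655, and 0 and 0 for tm2655 against wild type.

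No call of a receptor or of a pathway or marker gene changed sign under a setting run; the antisense neighbour Y45G5AM.9 turned from -0.50 to 0.15 with limma. The members' median for ok3407 against tm2655 turned from -0.03 to 0.14 with total library size and 0.10 with limma, where the median of all genes moved to 0.19 and 0.12. Depth limits the rare receptors: a floor of 3 reads is 0.0678 to 0.237 CPM, and 76 receptors were not tested.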
